A study of Mus musculus with 4 samples.

Results

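The dystrophin-glycoprotein complex was examined as 8 genes, found by their names in the transcript files: Dmd, Utrn, Dag1, Sgca, Sgcb, Sgcd, Sgce and Sspn. All 8 were present among 55416 measured genes, and together they had 62 of the 142434 annotated transcripts. The cells sequenced were C2C12, a line of mouse myoblasts, which divide as muscle precursors and can be made to fuse into fibres. The first group of 2 libraries came from cells transfected with K97E lamin A, named in the design text as a DCM (dilated cardiomyopathy) mutant, and the second group of 2 from cells transfected with wild-type (WT) lamin A. Both groups received 3 µg of DNA with a lipid reagent and were harvested 24 h later. The titles of the K97E libraries spell the cells C1C12, while their cell line label reads C2C12. No step that separates transfected from other cells is recorded, no removal of the cells' own lamin A is recorded, and cells without transfected DNA were not analysed here. The labels call the libraries biological replicates without saying that they came from separate cultures, so a p-value here weighs a difference only against the spread between these libraries, and that spread may be technical.

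The complex links the actin skeleton inside a muscle cell to the basement membrane outside it. Dystrophin (Dmd) or its close relative utrophin (Utrn) binds actin at one end and the tail of beta-dystroglycan at the other. Dag1 encodes both dystroglycans, and alpha-dystroglycan holds laminin through sugar chains added in the secretory pathway. The sarcoglycans (Sgca, Sgcb, Sgcd and Sgce here) and sarcospan (Sspn) sit in the membrane beside dystroglycan and hold the complex together. Loss of dystrophin, or of the sarcoglycan encoded by Sgca, Sgcb or Sgcd, causes muscular dystrophy, often with cardiomyopathy. In muscle, utrophin lines the surface of young fibres and later stays at nerve contacts, and dystrophin lines the mature fibre.

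The files gave levels in TPM, a gene's share of a library's transcripts after correction for length, scaled to a fixed total. Coverage in the K97E libraries was equal to about 115600000 and 107800000 reads of 100 bases, against 89600000 and 106400000 in the WT libraries. Between 14463 and 14684 genes reached 1 TPM in a library. The cell label was checked on markers: of 10 myoblast markers 9 were measured, all above 0 in every library, and their summed level was 741 and 734 TPM in K97E libraries and 710 and 852 TPM in WT libraries. Myf5, a myoblast transcription factor, stood at 41.5 and 46.3 TPM in K97E libraries and 45.0 and 47.8 TPM in WT libraries. Myod1, another, stood at 4.56 and 4.67 TPM in K97E libraries and 4.96 and 4.94 TPM in WT libraries. Des, which encodes desmin, was the largest part of the myoblast sum, at 401 and 384 TPM in K97E libraries and 404 and 467 TPM in WT libraries. Markers of fused fibres were low in sum but not all near 0. Myog, the transcription factor of early fusion, was listed at 0 in both K97E libraries and at 0 and 0.096 TPM in the WT libraries. The 10 such markers measured of 12 summed to 10.9 and 10.4 TPM in K97E libraries and 9.76 and 15.8 TPM in WT libraries. The largest part was Tnnc1, above Myod1 in every library, at 6.78 and 7.20 TPM in K97E libraries and 6.38 and 7.46 TPM in WT libraries. In WT replicate 2, Mymk reached 3.83 TPM and Mylpf 2.89 TPM. The 5 epithelial markers measured summed to at most 0.393 TPM, and Sox10, which defines Schwann cells, and the leukocyte markers Adgre1 and Cd3e were listed at 0 in every library. Other genes of those lists were not at 0: the 6 leukocyte markers summed to 4.54 and 3.20 TPM in K97E libraries and 3.89 and 5.53 TPM in WT libraries, most of it Cd68, and the 8 Schwann and neural markers to 8.45 and 6.20 TPM in K97E libraries and 4.95 and 7.40 TPM in WT libraries, most of it Tubb3. Of 7 smooth muscle markers, 6 were measured, Des among them. They summed to 1144 and 895 TPM in K97E libraries and 852 and 1038 TPM in WT libraries. Acta2 stood at 632 and 418 TPM in K97E libraries and 360 and 483 TPM in WT libraries, while Myh11 and Cnn1 stood at 0.0526 TPM or less. The sums therefore do not tell myoblasts from smooth muscle cells. Some genes listed as markers of other types were present, among them the fibroblast marker Pdgfrb at 74.5 and 70.9 TPM in K97E libraries and 63.1 and 59.1 TPM in WT libraries, and the endothelial marker Cdh5 at 17.1 and 18.8 TPM in K97E libraries and 20.3 and 17.8 TPM in WT libraries, while Lum and Pecam1 stood at 0 to 0.159 TPM. Lmna, the transfected gene, stood at 660 and 629 TPM in K97E libraries and 558 and 596 TPM in WT libraries, and these values do not separate reads of the transfected DNA, whose species the labels do not give, from reads of the cells' own gene, so they do not check the labels.

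These myoblasts held Utrn RNA and almost no Dmd RNA, with RNA of the other 6 members. Dag1 was the most abundant member, followed by Sgce, Utrn, Sgcb, Sspn, Sgcd, Sgca and Dmd, and the library values of neighbours in this order did not overlap. Against 16304 tested genes, of which 0.00613% were called at a limma adjusted p of at most 0.05 (1 gene, higher in K97E and not a member), 0 of the 7 tested members were called in either direction. At an unadjusted p under 0.05 the count was also 0 of 7, where 3.68% of all tested genes passed (1.14% higher and 2.54% lower in K97E). Dmd, below the mean of 0.5 TPM asked for testing, was not tested. In bulk RNA, fewer cells expressing a gene and less RNA per cell cannot be told apart.

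**Figure D1:**
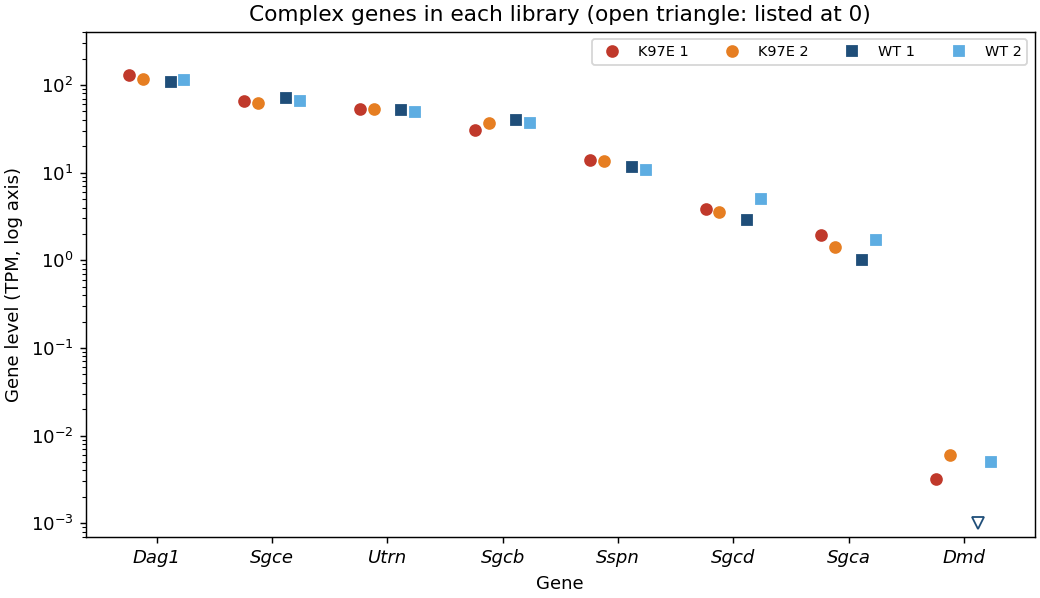
Level of each member in TPM on a log axis, with K97E libraries as circles left of WT libraries as squares, genes ordered by mean level, and an open triangle for a library listed at 0. The 7 genes other than Dmd lie between 0.999 and 131 TPM in every library, and Dmd at or below 0.00594 TPM.

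Dmd encodes dystrophin, whose full-length form starts at upstream promoters and whose shorter forms start at promoters inside the gene. Dmd (ENSMUSG00000045103; GRCm39 chromosome X, 81992476 to 84249747, plus strand) stood at 0.00323 and 0.00594 TPM in K97E libraries, and was listed at 0 and stood at 0.00499 TPM in WT libraries. This corresponded to an estimated 2.54 and 4.42 reads in K97E libraries, and 0 and 3.69 reads in WT libraries. The groups overlapped, and these values come from so few reads that no fold change is given.

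Of the 15 annotated Dmd transcripts, only ENSMUST00000114000, the 79-exon form of 14910 bases that begins at the muscle promoter, was listed above 0. The other 14 were listed at 0 in all 4 libraries. They include 6 that begin between exons 62 and 63 of the long form, the start of the short Dp71 type of dystrophin that many tissues other than muscle make, and the 51-exon ENSMUST00000239269, which begins between exons 29 and 30, where the retinal Dp260 type begins. In K97E replicate 1 the covered exons of ENSMUST00000114000 were exon 53 and exons 70 to 73, and in K97E replicate 2 they were exons 35 and 79. In WT replicate 2 they were exons 21, 22 and 79. No exon was covered in more than 2 libraries, and the coverage did not fall into one stretch of the gene. No exon before exon 21 was covered in any library. The listing under the 79-exon form therefore does not show that these reads came from RNA begun at the muscle promoter. Exons 1 to 62, which the short form lacks, held an estimated 0.55 and 0.74 reads in K97E libraries and 0 and 2 reads in WT libraries. Exons 63 to 79, shared with the short form, held 1.99 and 3.68 reads in K97E libraries and 0 and 1.69 in WT libraries. The ratio of the stretches was not computed from these few reads.

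The Dmd starts with a RefSeq window, the muscle start and the short-form start, are shown. The form at the muscle start was all but absent, and the forms at the short-form start were listed at 0. The Dag1 start, in the same myoblasts the start of the most abundant member, is set beside them. Each is RefSeq sequence of build GRCm38.p6, running from 250 bases before to 50 bases after the start, on the gene's strand. Capitals mark E-boxes (CANNTG), the motif that muscle factors such as MyoD bind. The windows are chrX:82948620-82948919 (plus strand), chrX:85048045-85048344 (plus strand) and chr9:108263909-108264208 (minus strand).
Dmd muscle start: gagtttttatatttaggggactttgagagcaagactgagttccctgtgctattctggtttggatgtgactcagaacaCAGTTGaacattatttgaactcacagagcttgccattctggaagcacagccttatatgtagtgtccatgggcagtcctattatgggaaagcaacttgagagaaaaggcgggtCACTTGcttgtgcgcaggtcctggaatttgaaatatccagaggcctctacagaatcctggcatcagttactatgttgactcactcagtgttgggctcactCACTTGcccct
Dmd short-form start: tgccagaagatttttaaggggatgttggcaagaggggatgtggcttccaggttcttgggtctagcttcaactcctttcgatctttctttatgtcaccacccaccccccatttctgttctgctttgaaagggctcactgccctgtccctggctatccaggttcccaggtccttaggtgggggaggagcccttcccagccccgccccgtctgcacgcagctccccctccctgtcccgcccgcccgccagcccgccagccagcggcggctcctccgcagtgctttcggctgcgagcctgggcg
Dag1 start: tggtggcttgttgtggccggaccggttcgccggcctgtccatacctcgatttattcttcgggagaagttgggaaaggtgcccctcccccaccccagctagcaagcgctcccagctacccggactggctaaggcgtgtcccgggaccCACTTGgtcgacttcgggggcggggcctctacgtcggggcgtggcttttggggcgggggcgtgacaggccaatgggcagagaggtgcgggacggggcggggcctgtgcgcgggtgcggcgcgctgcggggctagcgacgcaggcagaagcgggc
The Dmd muscle window had 3 E-boxes, 1 CArG box (the motif of serum response factor), 1 TATA box (TATAAA) and 0 GC boxes (GGGCGG), with a GC content of 45.7%. The Dmd short-form window had 0 E-boxes, 3 GC boxes and a GC content of 62.7%, and the Dag1 window had 1 E-box, 3 GC boxes and a GC content of 69.7%. Motifs were sought on both strands, and no E-box shown overlapped another of these motifs. Among 32851 RefSeq promoter windows of the same length, 72.3% held an E-box, 35.7% a GC box, 13.6% a TATA box and 1.63% a CArG box. A match describes the letters only. RefSeq windows were matched for 7 of the 8 members by symbol.

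The low Dmd level was set beside that of nearby genes. Within 1 Mb of Dmd, 31 genes were annotated, of which 20 were listed at 0 in every library and 2 reached a mean of 1 TPM. Those were Tab3, a TAK1-binding adaptor, at 9.27 and 9.34 TPM in K97E libraries and 7.99 and 7.33 TPM in WT libraries, and Gk, glycerol kinase, at 6.42 and 7.60 TPM in K97E libraries and 6.16 and 5.55 TPM in WT libraries. Many of the 31 genes had no gene name in the files. Of all 55416 measured genes, between 14463 and 14684 reached 1 TPM in a library, so most genes anywhere lay below that level. These are deposited values, described without a test.

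Utrophin is the dystrophin relative that can take its place under the membrane. Utrn (ENSMUSG00000019820; chromosome 10, 12257932 to 12745109, minus strand) stood at 52.9 and 53.5 TPM in K97E libraries, against 52.3 and 49.1 TPM in WT libraries. The groups did not overlap in these deposited values but did after scaling between libraries. The log2 fold change, K97E minus WT, was 0.01 (SE 0.09, n = 2 each; limma adjusted p = 0.993), with a 95% interval of -0.21 to 0.24, or a level in K97E of 0.864 to 1.18 times that in WT. Its direction depended on single libraries, at -0.033 without WT replicate 2 and -0.029 without K97E replicate 2. Utrn had an estimated 32669 and 31055 reads in K97E libraries and 26029 and 28586 in WT libraries.

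Coverage ran through all 75 exons of the leading Utrn transcript and was higher at its 3′ end. In TPM units, the first 25 exons had a mean coverage of 38.8 and 39.6 in K97E libraries and 35.6 and 35.9 in WT libraries. The last 25 exons had 60.4 and 59.8 in K97E libraries and 66.4 and 57.1 in WT libraries. The last stretch was 1.56 and 1.51 times the first in K97E libraries, and 1.86 and 1.59 times in WT libraries. WT replicate 1 had the steepest slope, and the other 3 libraries lay close together. The division of Utrn between its transcripts followed the replicate number, not the group: ENSMUST00000218635, with 75 exons, carried 77.4% and 64.2% of the gene's TPM in K97E libraries and 77.8% and 62.7% in WT libraries. ENSMUST00000076817, with 74 exons, carried 20.3% and 32.1% in K97E libraries and 20.6% and 34.6% in WT libraries.

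**Figure D2:**
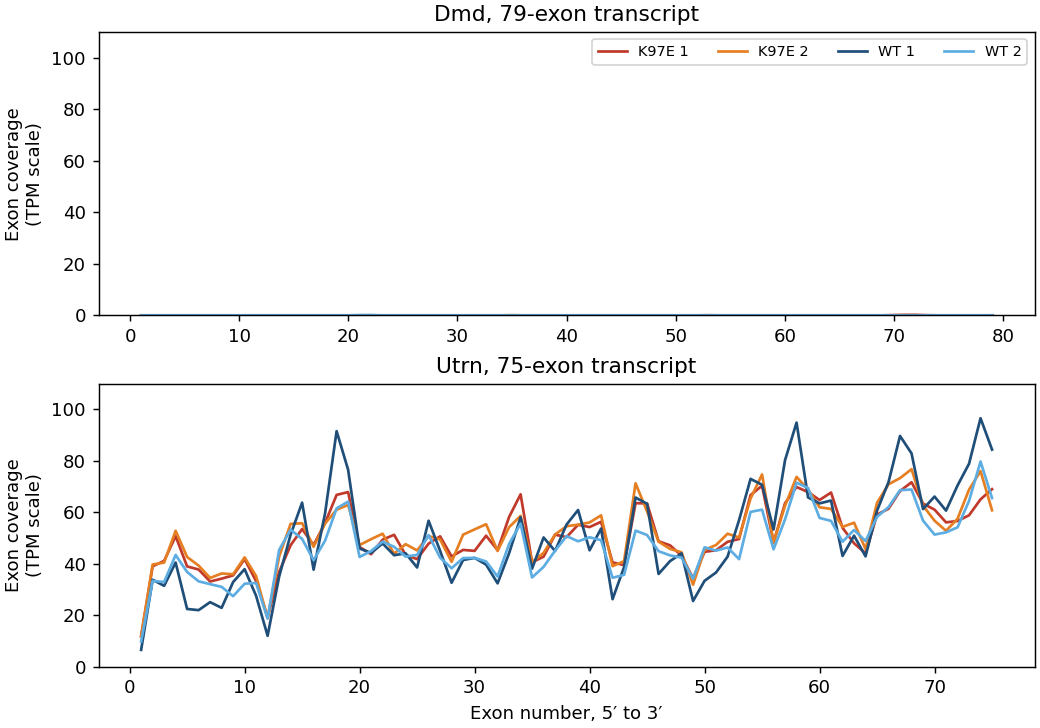
Coverage of each exon in TPM units by exon number, for the 79-exon Dmd transcript (top) and the 75-exon Utrn transcript (bottom), one line a library, on the same vertical scale. Dmd stays at the axis in all 4 libraries, while Utrn is covered throughout, with a mean of 35.6 to 39.6 over its first 25 exons and 57.1 to 66.4 over its last 25.

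Dag1, which encodes the laminin-binding and the membrane-spanning dystroglycan as 1 precursor, was the most abundant member. Dag1 (ENSMUSG00000039952; chromosome 9, 108081833 to 108141157, minus strand) stood at 131 and 118 TPM in K97E libraries, against 108 and 114 TPM in WT libraries. Both K97E libraries lay above both WT libraries, and K97E replicate 2 lay near WT replicate 2. On the log2 scale K97E minus WT was 0.11 (SE 0.09; limma adjusted p = 0.965), with a 95% interval of -0.12 to 0.33. It was 0.063 without WT replicate 1 and 0.063 without K97E replicate 1, and 0.16 with TPM as deposited. One transcript, ENSMUST00000191899, carried 94.0% to 96.0% of Dag1 in the 4 libraries, so the gene's level was in effect the level of that form. Among all tested genes 33.1% had groups that did not overlap after scaling (16.3% with K97E higher, 16.8% with K97E lower), against 4 of the 7 tested members (2 higher, 2 lower).

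Sspn encodes sarcospan, a small protein with several membrane-spanning stretches that binds the sarcoglycans. Sspn (ENSMUSG00000030255; chromosome 6, 145877367 to 145910949, plus strand) stood at 13.9 and 13.6 TPM in K97E libraries, against 11.7 and 10.8 TPM in WT libraries. All values of K97E lay above those of WT, before and after scaling. Its log2 fold change of 0.22 (SE 0.11; limma adjusted p = 0.965, unadjusted p = 0.0862) had the smallest p among the members, and its interval of -0.04 to 0.48 included 0. The same order held in each of its 3 exons: exon 1 had a coverage in TPM units of 2.98 and 3.75 in K97E libraries and 1.18 and 1.95 in WT libraries, exon 2 had 7.21 and 6.61 in K97E libraries and 5.01 and 4.36 in WT libraries, and exon 3 had 14.7 and 14.3 in K97E libraries and 12.5 and 11.5 in WT libraries. The exons belong to 1 transcript and are not independent of each other. Sspn shares 69 exon bases with Sspnos on the opposite strand, a gene that stood at 0.24 TPM or less, and no other member's exons overlapped another gene's.

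Sgcb encodes beta-sarcoglycan, the core of the sarcoglycan group together with delta-sarcoglycan. Sgcb (ENSMUSG00000029156; chromosome 5, 73790092 to 73805133, minus strand) stood at 30.9 and 36.8 TPM in K97E libraries, against 39.5 and 36.9 TPM in WT libraries. Both K97E libraries lay below both WT libraries, with replicate 2 of each nearly level. K97E minus WT was -0.24 on the log2 scale (SE 0.13; limma adjusted p = 0.965, unadjusted p = 0.124), with an interval of -0.56 to 0.09. Without K97E replicate 1, the lower K97E library, it was -0.078, and without K97E replicate 2 it was -0.40. Delta-sarcoglycan's gene Sgcd (ENSMUSG00000020354; chromosome 11, 46787080 to 47879796, minus strand) was far less abundant, at 3.84 and 3.56 TPM in K97E libraries and 2.88 and 4.94 TPM in WT libraries. The WT libraries of Sgcd lay on either side of the K97E libraries, and its log2 fold change of -0.08 (SE 0.25; limma adjusted p = 0.986) turned to 0.26 without WT replicate 2.

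Sgca encodes alpha-sarcoglycan, which is restricted to striated muscle, and Sgce encodes its relative epsilon-sarcoglycan, found in many tissues. Sgca (ENSMUSG00000001508; chromosome 11, 94853617 to 94867153, minus strand) stood at 1.96 and 1.402 TPM in K97E libraries, against 0.999 and 1.69 TPM in WT libraries. The groups overlapped, with K97E minus WT at 0.21 on the log2 scale (SE 0.26; limma adjusted p = 0.965). Leaving out 1 library at a time gave 0.051 and 0.37 without K97E replicates 1 and 2, and -0.065 and 0.49 without WT replicates 1 and 2. Sgce (ENSMUSG00000004631; chromosome 6, 4674350 to 4747207, minus strand) stood at 65.1 and 62.8 TPM in K97E libraries, against 71.7 and 65.0 TPM in WT libraries. K97E replicate 1 and WT replicate 2 were level as deposited, and the groups did not overlap after scaling. K97E minus WT was -0.15 for Sgce (SE 0.09; limma adjusted p = 0.965, unadjusted p = 0.154), with an interval of -0.38 to 0.08. It was -0.084 without WT replicate 1 and -0.095 with TPM as deposited. The level of Sgce was far above that of Sgca in every library. Sgcz, which encodes zeta-sarcoglycan, was listed at 0 in every library.

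**Figure D3:**
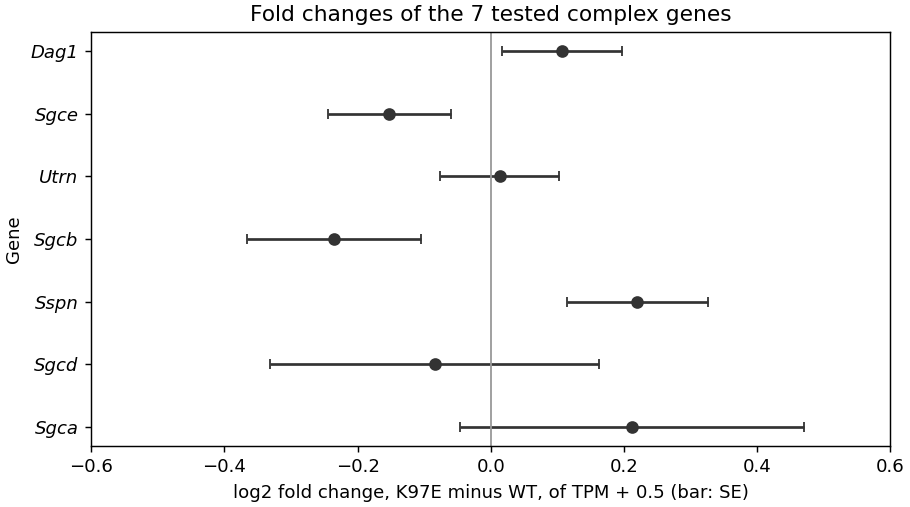
Log2 fold change, K97E minus WT, of the 7 tested members (points) with the standard error from limma (bars), on the scale of log2(scaled TPM + 0.5), with 2 libraries in each group. The points lie between -0.24 for Sgcb and 0.22 for Sspn, and 4 are above 0 and 3 below.

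Among Sgce transcripts, 1 library stood apart. ENSMUST00000133306, with 12 exons, stood at 42.9 and 0.092 TPM in K97E libraries and 46.2 and 32.7 TPM in WT libraries. ENSMUST00000090686, with 10 exons, stood at 13.4 and 41.6 TPM in K97E libraries and 12.1 and 14.6 TPM in WT libraries. The exchange was seen in K97E replicate 2 alone, and neither transcript was called (log2 fold changes -3.00 with SE 2.24 and 0.77 with SE 0.62; limma adjusted p = 0.957 for both). Without K97E replicate 2 the fold changes were 0.07 and -0.06. The exons that set the longer form apart are exon 8 (27 bases, GRCm39 chr6:4690469-4690495) and exon 11 (71 bases, chr6:4677163-4677233), both on the minus strand. They are shown with 20 bases of the neighbouring exons on either side, the exon in capitals, from the GENCODE transcript of build GRCm38 with the same identifier and exon lengths, because the coverage of these exons could be read in the files.
Sgce exon 8: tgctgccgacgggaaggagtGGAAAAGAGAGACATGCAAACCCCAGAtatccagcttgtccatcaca
Sgce exon 11: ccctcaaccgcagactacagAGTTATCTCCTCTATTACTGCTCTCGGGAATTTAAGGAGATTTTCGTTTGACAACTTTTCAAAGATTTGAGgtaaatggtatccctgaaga
Coverage of exon 8 was 98.0% and 95.7% of the mean of its flanking exons in K97E libraries, and 107% and 97.9% in WT libraries. The transcripts that hold it were credited with 75.7% and 31.3% of the gene's TPM in K97E libraries and 72.4% and 66.4% in WT libraries. Coverage of exon 11 was 1.94% and 2.15% of its flanks in K97E libraries and 1.19% and 2.41% in WT libraries, while the transcripts that hold it were credited with 68.8% and 0.215% of TPM in K97E libraries and 73.8% and 60.8% in WT libraries. The exon coverage of the 4 libraries was alike where the transcript shares of K97E replicate 2 were not, and exon 11 was all but uncovered in every library.

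**Figure D4:**
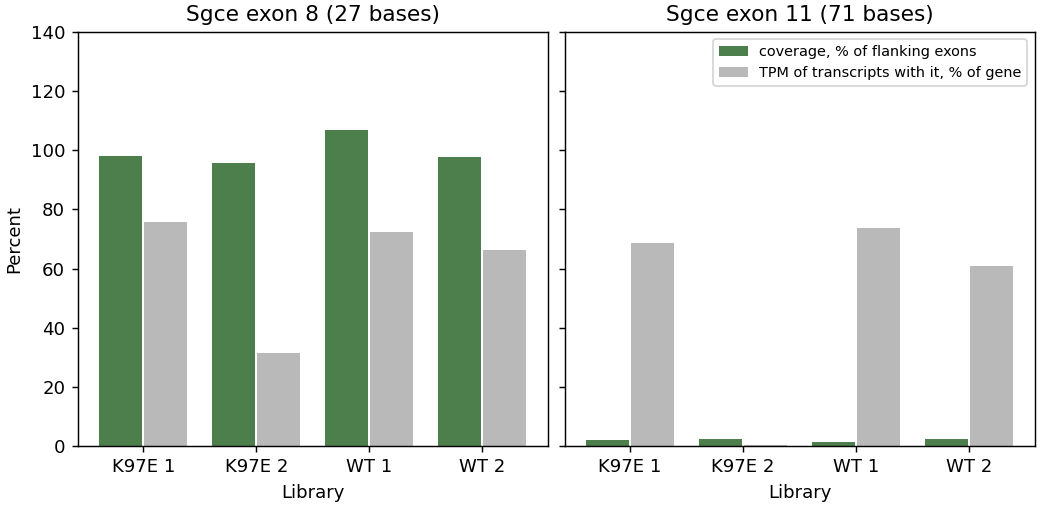
Sgce exons 8 and 11 in each library, K97E left of WT: coverage as a percent of the flanking exons (green bars) beside the percent of the gene's TPM credited to transcripts that hold the exon (grey bars). Green bars are level across libraries (95.7% to 107% for exon 8, 1.19% to 2.41% for exon 11), and the grey bars of K97E replicate 2 drop to 31.3% and 0.215%.

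Other members also had transcript shares that changed between libraries. Sgca was credited to ENSMUST00000100551 in K97E replicate 1 and WT replicate 2 (1.61 and 1.35 TPM) and to ENSMUST00000103162 in K97E replicate 2 and WT replicate 1 (1.04 and 0.934 TPM), each being listed at 0 where the other was not. Of Sspn, ENSMUST00000111701 carried 0.263% and 9.98% of TPM in K97E libraries and 0.176% and 0.184% in WT libraries, although its own first exon held an estimated 3.87 and 0.94 reads in K97E libraries and 1.75 and 1.37 reads in WT libraries. Sgcb and Sgcd each had 1 transcript with at least 98.7% of the gene's TPM in every library. Over 11378 genes compared, 78.7% had the same leading transcript in every library, and another leading transcript in 1 library alone was found for 3.01% of genes in K97E replicate 1 and 3.25% in K97E replicate 2, against 4.32% in WT replicate 1 and 3.16% in WT replicate 2. Of 38950 transcripts tested, 0 (0% of those tested) were called, and 4.57% passed an unadjusted p under 0.05 (2.21% higher and 2.36% lower in K97E). Of the 18 member transcripts tested, 0 were called and 1 had an unadjusted p under 0.05. That was the 11-exon Sgce transcript ENSMUST00000101677, the other holder of exon 11, named here after its values were seen. It stood at 1.92 and 0.0432 TPM in K97E libraries and 6.77 and 6.77 TPM in WT libraries (log2 fold change -2.70, SE 0.79; limma unadjusted p = 0.0293, adjusted p = 0.957). The groups did not overlap, and the coverage of exon 11 itself, given above for each library, did overlap between the groups.

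Genes that act with the complex were then compared, as 70 genes in lists by role, of which 3 are not analysed here. Of the 54 tested, 0 were called by limma, against 0.00613% of all tested genes, and 1 had an unadjusted p under 0.05, against 3.68%. In all, 49.5% of all tested genes had a positive fold change with a median of -0.0017. Of the syntrophins and dystrobrevins, the adaptors that bind dystrophin and utrophin, 5 of 7 were tested, 4 with a positive fold change and 1 with a negative one, with a median of 0.05. Dtnb, beta-dystrobrevin, stood at 13.3 and 11.2 TPM in K97E libraries and 9.42 and 11.0 TPM in WT libraries (log2 fold change 0.20, SE 0.13; limma adjusted p = 0.965). That difference was 0.11 without K97E replicate 1, 0.088 without WT replicate 1 and 0.30 without WT replicate 2. Sntb2, beta-2-syntrophin, was the most abundant adaptor of the list, at 19.96 and 19.4 TPM in K97E libraries and 19.2 and 19.4 TPM in WT libraries (-0.03, SE 0.09, and 0.03 with TPM as deposited).

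Of 12 signalling and membrane partners 8 were tested, 6 positive and 2 negative, with a median of 0.04. Ahnak, a giant membrane scaffold protein, stood at 306 and 274 TPM in K97E libraries and 215 and 260 TPM in WT libraries (0.23, SE 0.12; limma adjusted p = 0.965), with 0.094 without WT replicate 1 and 0.37 without WT replicate 2. Sync, syncoilin, an intermediate filament protein that binds dystrobrevin, stood at 25.8 and 18.6 TPM in K97E libraries and 23.9 and 24.3 TPM in WT libraries. Cav1, caveolin 1, varied within both groups, at 866 and 621 TPM in K97E libraries and 481 and 949 TPM in WT libraries. Of 11 cytoskeletal linkers 8 were tested, 5 positive and 3 negative, with a median of 0.03. Des, desmin, the intermediate filament of muscle, stood at 401 and 384 TPM in K97E libraries and 404 and 467 TPM in WT libraries (-0.20, SE 0.11; limma adjusted p = 0.965), with -0.31 without WT replicate 1 and -0.10 without WT replicate 2. Tubb5, a beta-tubulin, stood at 880 and 792 TPM in K97E libraries and 657 and 757 TPM in WT libraries (0.19, SE 0.12), with 0.080 without WT replicate 1 and 0.29 without WT replicate 2. Actb, beta-actin, was the most abundant of this list, at 2553 and 2464 TPM in K97E libraries and 2305 and 2324 TPM in WT libraries (0.058, SE 0.14, 0.12 for TPM as deposited and 0.19 after quantile normalization). Desmin was thus the only named linker with K97E libraries below WT libraries, and its values in K97E replicate 1 and WT replicate 1 were nearly level.

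On the outer side, 11 of 14 dystroglycan ligands and basement membrane genes were tested, 5 positive and 6 negative, with a median of -0.01. Hspg2, perlecan, a proteoglycan that dystroglycan binds, stood at 166 and 147 TPM in K97E libraries and 112 and 135 TPM in WT libraries (log2 fold change 0.28, SE 0.12; limma adjusted p = 0.965, unadjusted p = 0.0576). Its groups did not overlap, and the fold change was 0.15 without WT replicate 1. Dcn, decorin, stood at 18.6 and 28.6 TPM in K97E libraries and 31.8 and 26.6 TPM in WT libraries (-0.38, SE 0.23). Without K97E replicate 1 the Dcn fold change was -0.051, and without K97E replicate 2 it was -0.72. Bgn, biglycan, stood at 946 and 963 TPM in K97E libraries and 1126 and 762 TPM in WT libraries. Dcn and Bgn overlapped between the groups.

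Of 18 genes for the sugar chains of alpha-dystroglycan 17 were tested, 10 positive and 7 negative, with a median of 0.04. After scaling, 6 of the 17 had K97E libraries above WT libraries and 0 had them below, against 16.3% and 16.8% of all tested genes. In the other lists with tested genes these counts were less one-sided or smaller. They were 3 above and 1 below for the 8 linkers, and 1 and 1 for the 5 syntrophins and dystrobrevins. They were 1 and 1 for the 8 signalling and membrane partners, 1 and 0 for the 11 ligands, and 1 and 2 for the 5 laminin receptors. Pomt1 and Pomgnt1 were among the 6 of the sugar-chain list. Pomt1, which with Pomt2 adds the first mannose, stood at 18.2 and 17.4 TPM in K97E libraries and 14.4 and 15.6 TPM in WT libraries (0.19, SE 0.10; limma adjusted p = 0.965), with 0.12 without WT replicate 1. Pomgnt1, which extends the mannose, stood at 47.5 and 46.5 TPM in K97E libraries and 40.0 and 41.6 TPM in WT libraries (0.14, SE 0.09; limma adjusted p = 0.965). Dpm2, a subunit of the enzyme that makes the mannose donor, stood at 55.8 and 50.4 TPM in K97E libraries and 49.3 and 54.8 TPM in WT libraries. Rxylt1, a xylosyltransferase of the chain, followed the replicate number, at 29.4 and 18.3 TPM in K97E libraries and 32.3 and 18.8 TPM in WT libraries, and was singled out after its values were seen.

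Integrins are the other main laminin receptors of muscle cells, and of 6 listed receptors and partners 5 were tested, 2 positive and 3 negative. Itgb1bp2, melusin, a muscle protein that binds the tail of beta-1 integrin, had the smallest p of the 54 tested genes in these lists. It stood at 0.440 and 0.389 TPM in K97E libraries and 1.31 and 1.02 TPM in WT libraries (log2 fold change -0.90, SE 0.22; limma unadjusted p = 0.00749, adjusted p = 0.965). The groups did not overlap, and the level was low in both. The size depended on the scale, at -1.34 with a pseudocount of 0.1, -0.64 with a pseudocount of 1 and -0.54 with FPKM as deposited. Itga3 stood at 72.1 and 63.2 TPM in K97E libraries and 48.4 and 60.2 TPM in WT libraries (0.26, SE 0.13; limma adjusted p = 0.965), with 0.10 without WT replicate 1 and 0.42 without WT replicate 2. Itgb1, the shared beta-1 chain, stood at 399 and 354 TPM in K97E libraries and 375 and 365 TPM in WT libraries.

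**Figure D5:**
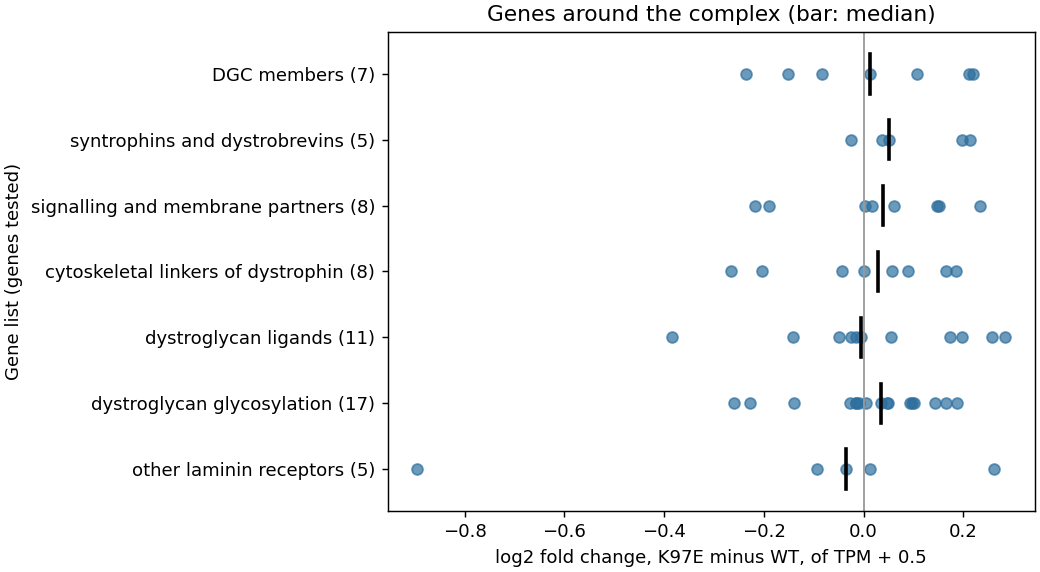
Log2 fold change, K97E minus WT, of each tested gene (points) by list, with the list's median (black bar) and the number tested in brackets, on the scale of log2(scaled TPM + 0.5). The medians lie between -0.03 and 0.05, and Itgb1bp2 at -0.90 is the point farthest from 0.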

How the data were processed

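Each deposited file lists the same annotated transcripts with coverage, FPKM and TPM, and coverage per exon. Per the file headers, the authors ran StringTie 2.1.7 with Ensembl release 104, estimating annotated transcripts without assembling others. The recorded command has no strand option, although the labels name a stranded kit. The submitters' processing notes also name HISAT2, SAMtools, FastQC and DESeq2 with build GRCm39. DESeq2 was not used here, and its role is not stated in the labels.

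Gene TPM was summed over transcripts, divided by median-of-ratios factors (1.04 and 1.00 for K97E, 0.98 and 0.98 for WT, over genes above 1 TPM in all libraries) and taken as log2 after adding 0.5. A fold change on this scale understates the change of low genes. Genes with a mean of at least 0.5 TPM were fitted with limma 3.58.1 in R 4.3.3 (eBayes with trend, two-sided, Benjamini-Hochberg, threshold 0.05), and transcripts likewise. With 2 libraries against 2, an exact permutation test cannot go below p = 0.333. The TPM values printed are as deposited. Estimated reads are coverage times length over the read length of 100 bases. They are not counts, so no counting interval is given, and reads shared by transcripts are divided by a model. Coverage in TPM units was scaled by the library's ratio of TPM to coverage. The reference for sequences is of another build (GRCm38), and its coordinates were kept apart.

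The members and gene lists were chosen with earlier results of these data known. From each list, called genes were to be named, or with none the 2 of smallest unadjusted p, and the most abundant. A gene picked this way is left out of the text. The likeness of other genes to Dmd, planned for tested genes, was not computed because Dmd was not tested. Tables were handled with Python 3.11.15, pandas 2.3.3 and matplotlib 3.10.9.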

Additional observations from a re-analysis of the deposited data

How the results depend on the processing

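With 2 libraries a group, 0 of the tested members were called under any of 16 alternatives. Sgca and Sgcd were tested in 15 of these, being below the filter of a mean of at least 5 TPM in the other. Dag1, Sgcb, Sgce and Sspn kept their direction in all 16, at 0.063 to 0.16 for Dag1, -0.40 to -0.078 for Sgcb, -0.22 to -0.084 for Sgce and 0.16 to 0.28 for Sspn. Of the gene counts, 1 higher and 0 lower as reported, no filter gave 0 higher, TPM as deposited and eBayes without trend each gave 1 lower, and leaving out 1 library gave 0 to 4 higher and 0 to 14 lower, the lone library being assumed to vary like the rest. The replicate number as a block gave 0 higher. Same-numbered libraries deviated with r = -0.14 over 16304 genes, and crossed libraries with r = 0.14, which is the opposite by construction. The labels do not say whether same-numbered libraries share a batch, and these correlations cannot settle it. Crossed pairs, chosen after seeing the data, gave 3 higher and 27 lower. Transcript calls stayed at 0 under 9 alternatives. The median fold change of the members, 0.013, ran from -0.065 to 0.15 with 1 library left out.

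Directions that changed were those of small or noisy fold changes, and the cause was not tested. With 1 library left out, the log2 fold change ran from -0.033 to 0.055 for Utrn, from -0.065 to 0.49 for Sgca, from -0.43 to 0.26 for Sgcd, from -0.39 to 0.0038 for Sync, from -0.43 to 0.55 for Cav1, from -0.30 to 0.26 for Bgn, from -0.11 to 0.047 for Dpm2 and from -0.089 to 0.017 for Itgb1. Of transcripts, it ran from -0.15 to 0.23 for ENSMUST00000218635, from -0.39 to 0.32 for ENSMUST00000076817, from -0.90 to 1.08 for ENSMUST00000100551, from -0.42 to 0.28 for ENSMUST00000077221, from -6.06 to 0.068 for ENSMUST00000133306 and from -0.059 to 1.59 for ENSMUST00000090686. TPM as deposited gave Sntb2 0.031, Bgn 0.043, Dpm2 0.030, Itgb1 0.023 and ENSMUST00000076817 0.0057. FPKM as deposited gave Sntb2 0.0021, Bgn 0.014 and Dpm2 0.00039, and quantile normalization gave Bgn 0.026 and Itgb1 0.010. The ratio of Dmd stretches gave no value in WT replicate 1, where both were at 0, so it and its alternatives were not run. The files hold no counts, so the precision of low genes such as Dmd and Sgca is unknown.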
